A study of Mus musculus with 7 samples.

Results

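The TGF-beta genes measured here are the 3 ligand genes Tgfb1, Tgfb2 and Tgfb3, the 3 receptor genes Tgfbr1, Tgfbr2 and Tgfbr3, the 3 latent binding protein genes Ltbp1, Ltbp3 and Ltbp4, and Tgfbi, which encodes a TGF-beta-induced matrix protein. These 10 of the 25461 genes in the deposited table were taken by their mouse gene symbols, and all 10 passed the minimum mean of 1 FPKM. The rule used no values, but the genes were chosen with earlier results of these data known. FPKM counts fragments per kilobase of transcript and per sequencing depth, so it is a level per length. The RNA came from whole B6C3F1 mouse embryos at embryonic day 11.5, 3 SLMAP3 knockout (KO) and 4 wildtype (WT), each from 1 embryo without the tail, which was used for genotyping. SLMAP3 is the longest form of the tail-anchored membrane protein SLMAP. The study's methods describe a global KO made by excising the floxed exon 3 of Slmap with CMV-cre, with Cre bred out before heterozygous mice were crossed. The labels name the embryos KOAC8-6, KOAC10-5 and KOAC10-8 (KO) and KOAC8-1, KOAC10-7, KOAC9-1 and KOAC10-2 (WT), and do not say what the numbers stand for or which embryos were littermates.

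TGF-beta ligands are secreted as latent dimers, held by their own propeptide and tied by latent TGF-beta binding proteins (LTBPs) to fibrillin-rich matrix. Integrins and proteases free the ligand, which binds the type II receptor TGFBR2, often handed over by the co-receptor TGFBR3 (betaglycan). TGFBR2 then phosphorylates the type I receptor TGFBR1, which phosphorylates SMAD2 and SMAD3. In the embryo the pathway is known for its roles in vessel walls, heart cushions, palate, skeleton and connective tissue.

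The promoters of Tgfb2 and Tgfbr2 are shown because both genes had all KO embryos under all WT embryos, and that of Tgfb1 because its level followed another order of the embryos. Tgfbi also had all KO embryos under all WT embryos, but its window is not printed. RefSeq windows of GRCm38.p6 matched 8 of the 10 genes, and Tgfb3 and Tgfbr3 had none. Each line gives the 250 bases before the start site, 5′ to 3′ on the gene's strand, with matches to the searched motifs in capitals. The Tgfb2 window is chr1:186705990-186706239 on the minus strand, the Tgfbr2 window chr9:116175364-116175613 on the minus strand and the Tgfb1 window chr7:25686752-25687001 on the plus strand.
Tgfb2: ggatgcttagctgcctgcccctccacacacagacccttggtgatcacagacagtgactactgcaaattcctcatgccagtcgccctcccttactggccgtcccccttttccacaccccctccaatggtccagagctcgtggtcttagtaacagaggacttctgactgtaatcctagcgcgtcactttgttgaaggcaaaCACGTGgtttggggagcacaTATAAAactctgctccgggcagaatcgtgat
Tgfbr2: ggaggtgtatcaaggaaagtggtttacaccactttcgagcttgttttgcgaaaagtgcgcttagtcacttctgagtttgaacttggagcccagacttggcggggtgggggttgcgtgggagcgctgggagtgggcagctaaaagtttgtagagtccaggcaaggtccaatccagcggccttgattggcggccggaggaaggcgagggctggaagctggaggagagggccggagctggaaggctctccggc
Tgfb1: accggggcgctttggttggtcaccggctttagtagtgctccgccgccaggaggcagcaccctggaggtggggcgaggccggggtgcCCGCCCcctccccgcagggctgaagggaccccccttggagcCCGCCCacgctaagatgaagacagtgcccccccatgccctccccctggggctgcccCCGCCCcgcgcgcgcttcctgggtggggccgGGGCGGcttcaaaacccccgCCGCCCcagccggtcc

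In the Tgfb2 window the capitals mark the E-box CACGTG at position -51 and the TATA box TATAAA at position -31 from the start site. Both strands were searched, and 6.02% and 12.37% of all 32851 windows of the same length held these letters. In the Tgfb1 window they mark 5 GC boxes (GGGCGG or its complement CCGCCC), a motif held by 32.74% of all windows. The Tgfb1 window was 75.2% G and C, the Tgfb2 window 53.6% and the Tgfbr2 window 58.4%, against a median of 52.4% over all windows. The Tgfbr2 window held none of the 7 motifs searched. Over the 12 windows of the 8 genes, GC boxes also stood before Tgfbr1, Ltbp4 and Tgfbi, and the cAMP response element TGACGTCA before Ltbp1 at position -73 (1.55% of all windows). The AP-1 motif TGANTCA, the TEAD motif GGAATG and the SMAD palindrome GTCTAGAC had no match in the 12 windows.

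Estimated counts on genes ran from 54400000 to 81400000 per embryo, and on the 10 genes from 460 (Tgfb1) to 15042 (Tgfbr1). The targeted gene Slmap was measured at 19.6, 16.0 and 16.6 FPKM (KO) and at 31.2, 23.9, 29.1 and 22.8 FPKM (WT), a log2 fold change of -0.59 (SE 0.13, limma, adjusted p = 0.278). This value sums all isoforms of the gene, while the deletion is described as removing SLMAP3 alone. Embryos KOAC10-5, KOAC10-7 and KOAC10-2 stood apart in liver transcripts, with 4.18 to 9.92 FPKM summed over 6 hepatoblast markers against 395 to 709 in the other 4. These 3 embryos comprise 1 KO and 2 WT.

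No TGF-beta gene passed the adjusted threshold, and the values leaned to lower levels in KO embryos for Tgfb2, Tgfbr2, Ltbp3 and Tgfbi. The genotypes were set against each other with limma on log2(FPKM + 1) over 16095 genes, a scale that understates the fold of low genes. Of the 10, 0 had an adjusted p under 0.05 (Benjamini-Hochberg), as had 0.0373% of all genes tested, 6 in number. For 4 of 10 the unadjusted p was under 0.05, against 11.5% of all genes, and all 4 were lower in KO embryos, against 6.19% of all genes. The ranges of the groups did not overlap, with KO lower, for 3 of 10 genes (Tgfb2, Tgfbr2 and Tgfbi), against 5.98% of all genes. The log2 fold change was negative for 8 of 10 genes, with a median of -0.19, while over all genes it was negative for 7541 of 16095 with a median of 0.01. The count of 4 was 2 without the KO embryo KOAC10-8, where the share of all genes was 7.8%, and 2 without the WT embryo KOAC9-1, where that share was 7.85%. It was 0 within the KOAC10 embryos alone, 2 KO and 2 WT (4.9% of all genes). Without the 3 embryos low in liver transcripts, which also leaves 2 KO and 2 WT, it was 5. The share of all genes in that fit was below the 11.5% of the fit to all embryos. Without the KO embryo KOAC10-5 the count was 5 (16.4% of all genes). With the KOAC number as a block, where the lone KOAC9 embryo no longer bears on the difference, it was 2 (8.69% of all genes). Nothing in the labels says that the embryos of a group came from separate litters, so the p-values measure the spread between these embryos.

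**Figure D1:**
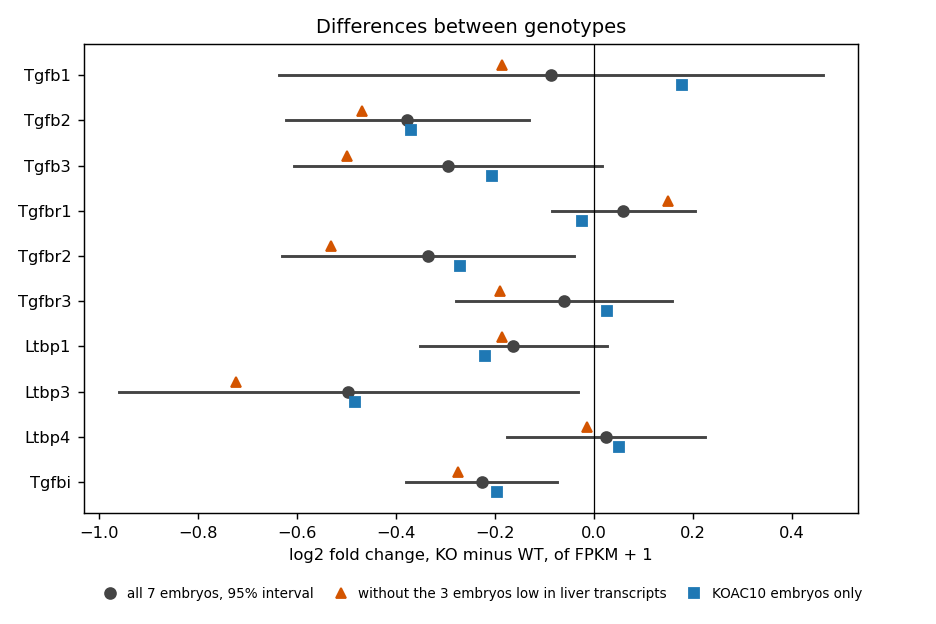
Log2 fold change (KO minus WT, log2(FPKM + 1), horizontal axis) of each of the 10 genes, with circles and 95% intervals from limma on all 7 embryos, triangles for the fit without the 3 embryos low in liver transcripts and squares for the KOAC10 embryos only. The intervals of Tgfb2, Tgfbr2, Ltbp3 and Tgfbi lie below 0, and those of the other 6 genes span it.

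Of the ligands, Tgfb2 was the most abundant in every embryo. TGF-beta2 (ENSMUSG00000039239, GRCm38 chr1:186622792-186705989, minus strand) is the ligand best known from heart, ear and craniofacial development. Tgfb2 was measured at 15.6, 19.0 and 14.3 FPKM in KO embryos KOAC8-6, KOAC10-5 and KOAC10-8. In WT embryos KOAC8-1, KOAC10-7, KOAC9-1 and KOAC10-2 it was at 19.9, 23.2, 22.3 and 20.2 FPKM. All KO embryos were under all WT embryos, and the KO mean (16.3 ± 2.46 SD, n = 3) was 23.7% below the WT mean (21.4 ± 1.62 SD, n = 4). The log2 fold change was -0.38 (SE 0.10, 95% interval -0.62 to -0.13), with an unadjusted p of 0.00825 and an adjusted p of 0.312 by limma and p = 0.0286 in an exact two-sided permutation test. This is the smallest p that the 35 splits of the embryos into 3 and 4 can give.

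Tgfb3 (ENSMUSG00000021253, chr12:86056745-86079041, minus strand), the ligand needed for palate fusion, overlapped between the groups. Its levels were 8.64, 10.51 and 7.30 FPKM (KO) and 10.6, 11.04, 12.7 and 9.54 FPKM (WT), in the same order of embryos. The KO embryo KOAC10-5 stood among the WT embryos and the other KO embryos under all of them. The log2 fold change was -0.29 (SE 0.13, 95% interval -0.61 to 0.02, adjusted p = 0.457 by limma). Of its 50-base stretches, 8.79% match other genes' transcripts, all of them on the opposite strand, 6.27% in the antisense gene Gm48008. The library kit does not mark strand.

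Tgfb1 (ENSMUSG00000002603, chr7:25687002-25705077, plus strand), the ligand of platelets, blood and endothelium, overlapped widely between the genotypes. KO embryos had 7.44, 5.37 and 9.34 FPKM and WT embryos 9.99, 5.32, 9.26 and 7.15 FPKM. KO and WT means were 7.38 ± 1.99 (SD, n = 3) and 7.93 ± 2.12 (SD, n = 4) FPKM, a log2 fold change of -0.09 (SE 0.23, 95% interval -0.64 to 0.46, adjusted p = 0.913 by limma). The 3 lowest embryos, KOAC10-7, KOAC10-5 and KOAC10-2, were those low in liver transcripts. The summed level of 6 megakaryocyte and platelet markers was also lowest in these 3, at 26.0 to 40.1 FPKM against 66.4 to 90.3 in the other 4, and none of these markers was at 0 in any embryo. With the hepatoblast gene Afp as a covariate the log2 fold change of Tgfb1 was -0.21 and its SE 0.11. The part of liver or platelets in the Tgfb1 level was not tested, and in whole embryos fewer cells of a type and less RNA per cell cannot be told apart.

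The 3 ligands together summed to 31.7, 34.9 and 30.9 FPKM (KO) and to 40.5, 39.5, 44.3 and 36.9 FPKM (WT). The KO sums (32.5 ± 2.12 SD, n = 3) were all under the WT sums (40.3 ± 3.09 SD, n = 4). Within the sum, Tgfb2 made up 46.2% to 58.6%, Tgfb3 23.6% to 30.1% and Tgfb1 13.5% to 30.2%, and for each ligand the KO and WT shares overlapped. In the stacked plot of ligand levels the largest Tgfb1 share is that of the KO embryo KOAC10-8, where both Tgfb2 and Tgfb3 were at their lowest.

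**Figure D2:**
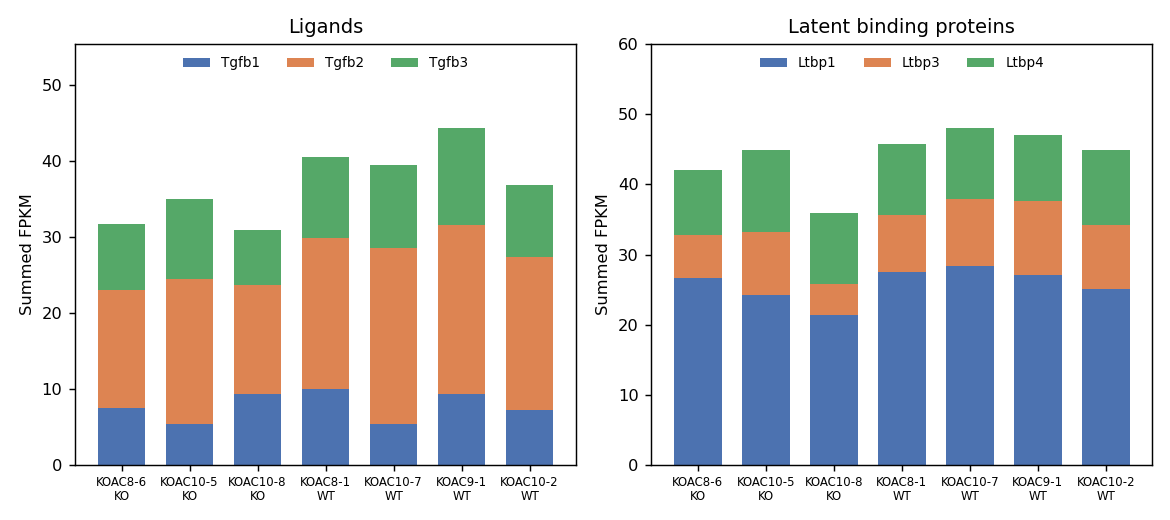
FPKM of the 3 ligands and of the 3 LTBPs stacked for each of the 7 embryos (vertical axes from 0). The ligand stacks of the KO embryos reach 30.9 to 34.9 FPKM and those of the WT embryos 36.9 to 44.3 FPKM, and Tgfb2 and Ltbp1 are the thickest layers in every embryo.

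Of the receptors, Tgfbr2 had KO and WT ranges apart, and those of Tgfbr1 and Tgfbr3 overlapped. Tgfbr2 (ENSMUSG00000032440, chr9:116084293-116175360, minus strand) encodes the type II receptor, which binds the ligand. Its levels were 7.29, 8.39 and 5.75 FPKM (KO) and 9.13, 8.79, 10.51 and 8.41 FPKM (WT). The KO values were all under the WT values, although KOAC10-5 (KO, 8.39) and KOAC10-2 (WT, 8.41) nearly met. The KO mean of 7.14 ± 1.33 (SD, n = 3) was 22.4% below the WT mean of 9.21 ± 0.918 (SD, n = 4). The log2 fold change was -0.34 (SE 0.13, 95% interval -0.63 to -0.04), with p = 0.0311 and an adjusted p of 0.400 by limma, and p = 0.0286 in the exact two-sided permutation test. Without KOAC10-8 the log2 fold change was -0.21 and without KOAC9-1 -0.28, and the unadjusted p was no longer under 0.05 in either fit. It stayed under 0.05 in 3 of the 7 fits that left out 1 embryo. With the KOAC number as a block and within the KOAC10 embryos it was not under 0.05.

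Tgfbr1 (ENSMUSG00000007613, chr4:47353222-47414931, plus strand), the type I receptor kinase, was among the most even of the 10 genes. KO embryos had 43.2, 41.2 and 42.9 FPKM and WT embryos 40.0, 44.0, 37.5 and 41.6 FPKM. The groups overlapped, with a log2 fold change of 0.06 (SE 0.06, 95% interval -0.08 to 0.20, adjusted p = 0.724 by limma). The ratio of Tgfbr1 to Tgfbr2 was 5.93, 4.91 and 7.46 in the KO embryos and 4.38, 5.00, 3.57 and 4.95 in the WT embryos, and KOAC10-5 lay within the WT range.

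Tgfbr3 (ENSMUSG00000029287, chr5:107106570-107289629, minus strand), the co-receptor betaglycan, had the lowest WT mean of the 10. Its levels were 4.51 to 5.06 FPKM (KO) and 4.46 to 5.72 FPKM (WT). The groups overlapped, with a log2 fold change of -0.06 (SE 0.09, 95% interval -0.28 to 0.16, adjusted p = 0.828 by limma).

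Of the latent binding proteins, only Ltbp3 had an unadjusted p under 0.05 by limma. Ltbp3 (ENSMUSG00000024940, chr19:5740904-5758532, plus strand), known for its role in bone and tooth growth, had the largest log2 fold change in size of the 10 and, relative to the mean, also the widest spread among KO embryos. KO embryos had 6.19, 8.95 and 4.43 FPKM and WT embryos 8.12, 9.51, 10.65 and 9.04 FPKM. KOAC10-5 lay within the WT range, and the other KO embryos lay below it. The KO mean of 6.53 ± 2.28 (SD, n = 3) was 30.1% below the WT mean of 9.33 ± 1.06 (SD, n = 4). The log2 fold change was -0.50 (SE 0.20, 95% interval -0.96 to -0.03), with p = 0.0393 and an adjusted p of 0.417 by limma, and p = 0.0571 in the exact two-sided permutation test. Without KOAC10-8 it was -0.28 and without KOAC10-5 -0.72.

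Ltbp1 (ENSMUSG00000001870, chr17:75005568-75392512, plus strand), a main carrier of latent TGF-beta1 in matrix, was the most abundant of the 3. Its levels were 26.6, 24.3 and 21.4 FPKM (KO) and 27.5, 28.4, 27.0 and 25.1 FPKM (WT). KOAC8-6 lay within the WT range, and the log2 fold change was -0.16 (SE 0.08, 95% interval -0.35 to 0.03, adjusted p = 0.486 by limma). Ltbp4 (ENSMUSG00000040488, chr7:27305136-27337692, minus strand), which is known from elastic fibre assembly in the lung, measured 9.24, 11.6 and 10.1 FPKM (KO) and 10.1, 10.19, 9.39 and 10.68 FPKM (WT). The lowest and the highest value were both of KO embryos, and the log2 fold change was 0.03 (SE 0.09, 95% interval -0.17 to 0.23, adjusted p = 0.930 by limma). The 3 LTBPs together summed to 36.0 to 44.9 FPKM (KO) and 44.9 to 48.1 FPKM (WT), and Ltbp1 made up 54.1% to 63.3% of the sum.

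Tgfbi (ENSMUSG00000035493, chr13:56609523-56639562, plus strand), a secreted protein that binds collagens and integrins and is induced by TGF-beta, had the highest WT level of the 10. KO embryos had 42.0, 46.7 and 42.9 FPKM and WT embryos 47.9, 52.5, 55.2 and 50.1 FPKM. All KO embryos were under all WT embryos, and the KO mean (43.8 ± 2.51 SD, n = 3) was 14.8% below the WT mean (51.5 ± 3.13 SD, n = 4). The log2 fold change was -0.23 (SE 0.06, 95% interval -0.38 to -0.07), with an unadjusted p of 0.00961 and an adjusted p of 0.321 by limma, and p = 0.0571 in the exact two-sided permutation test.

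**Figure D3:**
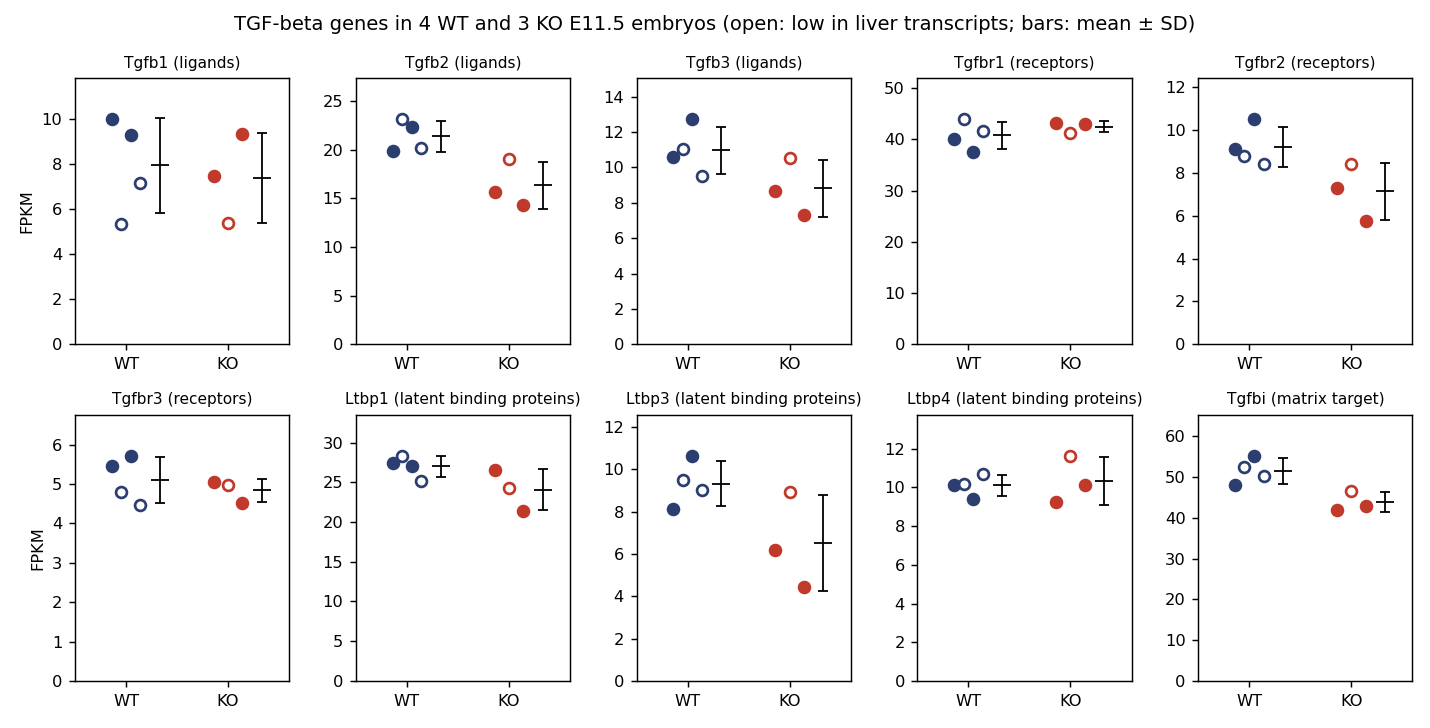
FPKM of each of the 10 genes (1 panel a gene, vertical axes from 0) in the 3 KO and 4 WT embryos, with a tick at each group mean, error bars of 1 SD and open points for the 3 embryos low in liver transcripts. KO and WT points are apart for Tgfb2, Tgfbr2 and Tgfbi and overlap for the other 7 genes.

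By WT mean FPKM the order was Tgfbi, Tgfbr1, Ltbp1, Tgfb2, Tgfb3, Ltbp4, Ltbp3, Tgfbr2, Tgfb1 and Tgfbr3. From Tgfbi to Tgfb3 each gene's WT range lay above that of the next. From Tgfb3 to Tgfbr3 each gene's WT range overlapped that of its neighbour, although Tgfb1 was above Tgfbr3 in 7 of 7 embryos. Tgfbi was above Tgfbr1 in 5 of 7 embryos, and the exceptions were the KO embryos KOAC8-6 and KOAC10-8.

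The KO embryos differed among themselves. KOAC10-8 was the lowest of the 7 embryos for 5 genes (Tgfb2, Tgfb3, Tgfbr2, Ltbp1 and Ltbp3), KOAC8-6 for 2 (Ltbp4 and Tgfbi) and KOAC10-5 for 0. Among the WT embryos, KOAC9-1 was the highest for 5 genes (Tgfb3, Tgfbr2, Tgfbr3, Ltbp3 and Tgfbi) and KOAC10-7 for 3. Without the 3 embryos low in liver transcripts, 2 KO and 2 WT remained. The log2 fold change was then -0.47 for Tgfb2, -0.50 for Tgfb3, -0.53 for Tgfbr2, -0.72 for Ltbp3 and -0.27 for Tgfbi. It was -0.18 for Tgfb1, 0.15 for Tgfbr1, -0.19 for Tgfbr3, -0.18 for Ltbp1 and -0.013 for Ltbp4. This fit left out KOAC10-5, the highest KO embryo for Tgfb2, Tgfb3, Tgfbr2, Ltbp3 and Tgfbi. Within the KOAC10 embryos, also 2 KO and 2 WT, those genes were at -0.37, -0.20, -0.27, -0.48 and -0.19.

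Summed markers of skeletal and smooth muscle were lower in all KO than in all WT embryos, as were Tgfb2, Tgfbr2 and Tgfbi. The sum of 8 skeletal muscle markers was 73.8 to 129 FPKM in KO embryos and 189 to 291 FPKM in WT embryos, and 6 of the 8 were lower at an unadjusted p under 0.05. At that level 6.19% of all genes tested were lower and 5.27% higher. The sum of 6 smooth muscle and mural cell markers was 81.3 to 104 against 122 to 150 FPKM, with 2 of the 5 tested lower at that level. These 2 were Acta2 and Tagln. Cnn1 (log2 fold change -0.33, SE 0.18) and Rgs5 (-0.24, SE 0.18) overlapped between the groups, and Pdgfrb was level (0.006, SE 0.04). The sum of 6 cartilage and sclerotome markers was 187 to 195 against 199 to 231 FPKM, with 3 of the 5 tested lower. This sum rested on Col2a1, without which it was 48.2 to 54.6 against 47.5 to 57.6 FPKM and overlapped. The sum of 6 neural progenitor markers was higher, at 315 to 388 against 241 to 307 FPKM, with 6 of 6 higher at that level, and without Nes, its most abundant gene, the groups overlapped (187 to 254 against 144 to 189 FPKM). In KOAC10-8 the skeletal and smooth muscle sums were the lowest and the neural progenitor sum the highest of the 7 embryos, and in KOAC9-1 the muscle sums were the highest and the neural progenitor sum the lowest. Endothelial markers summed to 91.4 to 98.1 FPKM in KO and 85.9 to 94.6 FPKM in WT embryos and overlapped, with 2 of 6 higher at an unadjusted p under 0.05. Without Cdh5, its most abundant gene, the endothelial sum was higher in all KO embryos (70.5 to 74.4 against 63.3 to 69.6 FPKM). Cdh5 itself was level (log2 fold change -0.009, SE 0.08), and Cldn5 leaned lower with overlapping groups (-0.16, SE 0.09). Heart muscle markers summed to 383 to 503 against 336 to 407 FPKM and overlapped, with 3 of 6 higher. No marker of these lists was at 0 in any embryo, and the part of the makeup of the embryos in the TGF-beta values was not tested.

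**Figure D4:**
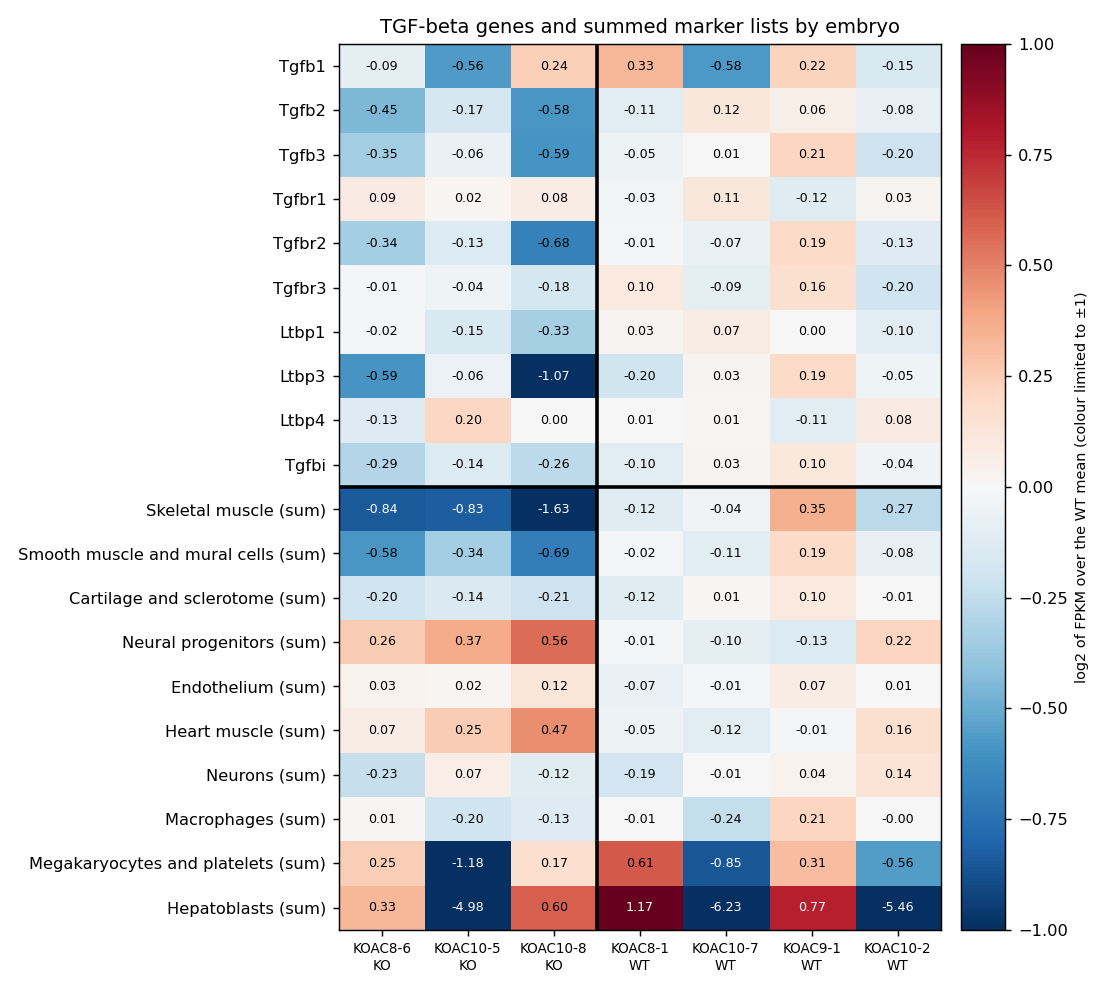
Log2 of FPKM over the WT mean (colour and printed value) for the 10 genes and 10 summed marker lists (rows) in the 7 embryos (columns). Ltbp3 in KOAC10-8 (-1.07) is the lowest value among the genes, and Tgfb1 is low in KOAC10-5 and KOAC10-7 as are the megakaryocyte and hepatoblast sums.

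Other genes of the pathway were described in 4 lists, and 0 of them passed the adjusted threshold by limma. Of all genes tested, 6.19% were lower and 5.27% higher in KO embryos at an unadjusted p under 0.05, the shares beside which the counts of each list stand. Of 17 latency and activation partners 15 were tested, and 5 were lower and 1 higher at an unadjusted p under 0.05, with a median log2 fold change of -0.12. Emilin1, a matrix inhibitor of TGF-beta precursor processing, was at 50.9 to 58.0 FPKM in KO and 62.9 to 69.9 FPKM in WT embryos (log2 fold change -0.27, SE 0.06, adjusted p = 0.285). Fbn2, a fibrillin of the microfibrils that hold LTBPs, was at 32.1 to 38.9 against 39.3 to 45.6 FPKM (-0.25, SE 0.08). Bmp1, a protease that cleaves LTBP1 and procollagens, was at 45.4 to 54.8 against 55.1 to 65.5 FPKM (-0.28, SE 0.08). Thbs1, which activates latent TGF-beta1, had the smallest log2 fold change of the list (-0.35, SE 0.14) with overlapping groups. Itgb8, a subunit of the integrin that activates latent TGF-beta in the developing brain vasculature, was the exception, at 6.74 to 7.08 FPKM in KO and 4.30 to 5.52 FPKM in WT embryos (0.37, SE 0.09, adjusted p = 0.286).

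All 9 other receptors and co-receptors were tested, 2 of them higher (5.27% of all genes) and 0 lower (6.19%) at an unadjusted p under 0.05, with a median log2 fold change of 0.05. Acvrl1 (ALK1), the type I receptor of endothelium, was at 6.19 to 8.49 FPKM in KO and 4.28 to 5.65 FPKM in WT embryos (0.40, SE 0.13, adjusted p = 0.348 by limma). Acvr2b, an activin type II receptor, was at 24.6 ± 2.29 (SD, n = 3) against 19.7 ± 1.63 (SD, n = 4) FPKM (0.31, SE 0.09). Vasn, a decoy that binds the ligand, had the smallest log2 fold change (-0.09, SE 0.06).

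Of the 13 Smad effectors and feedback genes, 1 was higher and 0 lower at an unadjusted p under 0.05, near the 5.27% of all genes that were higher, with a median of 0.05. That one was Smad7, the inhibitory Smad, at 9.48 to 11.9 FPKM in KO and 8.64 to 9.22 FPKM in WT embryos (0.21, SE 0.08, adjusted p = 0.397 by limma). Pmepa1, another feedback inhibitor, had the smallest log2 fold change (-0.16, SE 0.08) with overlapping groups.

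The 15 TGF-beta-induced transcripts, 14 of them tested, split in both directions, with 6 lower (6.19% of all genes) and 3 higher (5.27% of all genes) at an unadjusted p under 0.05 and a median of -0.16. The 6 lower at that level were matrix and contractile genes. Fn1, a matrix gene of the same list, overlapped between the groups (-0.08, SE 0.06), as did Ccn2 (-0.06, SE 0.06). Acta2, smooth muscle actin, was at 31.1 to 47.8 FPKM in KO and 61.3 to 80.7 FPKM in WT embryos (-0.79, SE 0.15, adjusted p = 0.274 by limma), and Tagln, which binds actin, at 15.7 to 23.2 against 23.8 to 33.04 FPKM (-0.52, SE 0.16). Both are also among the smooth muscle markers above. Postn, a matrix protein of the same family as TGFBI, was at 29.3 to 46.2 against 52.2 to 68.8 FPKM (-0.66, SE 0.16). The fibrillar collagen genes Col1a1, Col1a2 and Col3a1 had log2 fold changes of -0.59, -0.36 and -0.37 (SE 0.19, 0.11 and 0.11), with all KO embryos under all WT embryos for each.

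The higher ones encode transcription factors, but Snai2, another such gene of the list, had a negative log2 fold change with overlapping groups (-0.16, SE 0.12). Bhlhe40 was at 3.40 to 3.90 FPKM in KO and 2.15 to 2.52 FPKM in WT embryos (0.44, SE 0.08, adjusted p = 0.274 by limma). The AP-1 subunit gene Junb was at 2.68 to 4.15 against 2.00 to 2.32 FPKM (0.44, SE 0.12), and Snai1, a repressor of epithelial genes, at 14.6 to 19.1 against 12.3 to 13.9 FPKM (0.30, SE 0.09). These 3 are also induced by other signals.

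**Figure D5:**
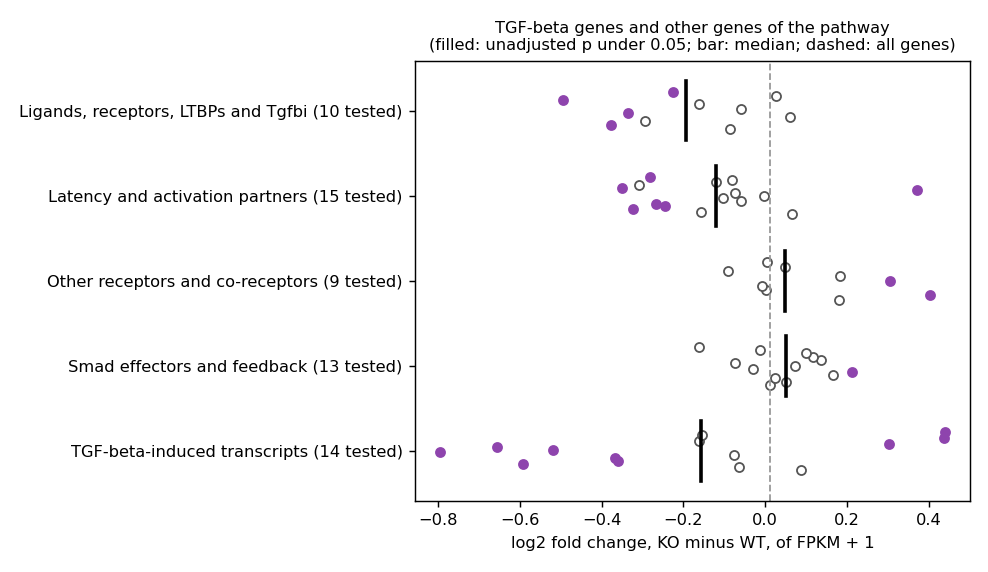
Log2 fold change (KO minus WT, log2(FPKM + 1), horizontal axis) of the 10 genes and of the 4 pathway lists, 1 point a gene, filled where the unadjusted limma p is under 0.05, with a bar at each list's median and a dashed line at the median of all genes tested. The medians are -0.19, -0.12, 0.05, 0.05 and -0.16 from top to bottom, and no point passes the adjusted threshold.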

How the data were processed

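RNA-seq values of 7 whole embryos were used, 3 KO and 4 WT by the genotype in the labels, and 0 columns of values were left unmapped. The authors deposited 1 FPKM value per gene and embryo, made from TruSeq RNA v2 libraries. The submitters' processing notes name Salmon, DESeq2, MultiQC and the build GRCm38, without versions. From the authors' own comparison, the mean signal per gene (normalized counts) was used for estimates of depth. The deposited log2 fold changes and their standard errors, the test statistic and the p-value columns of that comparison were not used.

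FPKM values were transformed to log2(FPKM + 1), genes whose mean reached 1 FPKM were kept, and limma 3.58.1 (R 4.3.3, lmFit and eBayes with trend) was fitted to the groups without a covariate. Benjamini-Hochberg adjustment covered every gene tested, with a threshold of 0.05. The steps were tested on simulated data. Single genes were also compared by exact permutation over the 35 splits of the embryos, where the smallest two-sided p is 0.0286. Relative depth came from the steps between low FPKM values, of which 77.7% to 83.4% per embryo lay within 0.1 of a whole count. Positions and the 50-base stretches shared between genes came from GENCODE M21, promoter windows from RefSeq. FPKM are scaled within each embryo, so a difference is relative to the other transcripts.

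The members and lists were chosen with earlier results of these data known. Genes named beside the 10 are those of the lists with an adjusted p under 0.05. Otherwise they are those with an unadjusted p under 0.05 and groups apart, and the largest and smallest log2 fold change of each list. Fn1, Ccn2, Snai2, Ltbp2, Itgb6 and Furin were named outside this rule. As alternatives, the pseudocount was set to 0.1 and 0.01, and the others were no filter, a minimum mean of 5 FPKM, median-ratio size factors, quantile normalization, a robust fit, embryo quality weights, the KOAC number as a block, Afp as a covariate, the KOAC10 embryos alone, the embryos rich in liver transcripts alone, and leaving out each embryo.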

Additional observations from a re-analysis of the deposited data

How the results depend on the processing

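Under each of the 19 alternatives 0 of the 10 genes and 0 genes of each of the 4 pathway lists had an adjusted p under 0.05 by limma. The count of 10 genes with an unadjusted p under 0.05 was 4 as reported. It was 2 with the KOAC number as a block (8.69% of all genes) and 0 within the KOAC10 embryos (4.9%). When 1 embryo was left out it ran from 2 to 5. It was 2 without KOAC10-8 (7.8% of all genes) or KOAC9-1 (7.85%), and 5 without KOAC10-5 (16.4%). Fewer embryos bore on the difference in these fits. The count was 5 without the 3 embryos low in liver transcripts, which leaves 2 KO and 2 WT, as does the KOAC10 fit. The cause of the differing counts was not tested. Tgfb2 kept a negative log2 fold change under all 19, from -0.49 to -0.29, with an unadjusted p under 0.05 in 18 of them. Tgfbi ran from -0.27 to -0.19, with such a p in 18 of 19, Tgfbr2 from -0.53 to -0.21 in 13, Ltbp3 from -0.72 to -0.28 in 11, Tgfb3 from -0.50 to -0.18 in 3 and Ltbp1 from -0.23 to -0.08 in 1. The 19 alternatives share embryos and are not separate checks, and some repeat an estimate. For Tgfb2 it stayed at -0.38 in the robust fit, without a filter and at a minimum mean of 5 FPKM. The KOAC block and the fit without KOAC9-1 both gave -0.36 for Tgfb2. The small differences changed sign. Within the KOAC10 embryos, Tgfb1 was at 0.18, Tgfbr1 at -0.023 and Tgfbr3 at 0.027. Ltbp4 was at -0.0062 with the KOAC number as a block, at -0.031 with embryo quality weights and at -0.013 without the 3 embryos low in liver transcripts. When 1 embryo was left out, Tgfb1 ran from -0.25 to 0.10 and Ltbp4 from -0.056 to 0.096. Tgfbr3 has no value at a minimum mean of 5 FPKM. The number of all genes with an adjusted p under 0.05, 6 as reported, was 13 within the KOAC10 embryos, 12 without KOAC8-1, 10 with Afp as a covariate, 4 at a minimum mean of 5 FPKM and 17 without the embryos low in liver transcripts. The scalings tried moved the median of all genes by less than 0.1. The KOAC block is the fit within numbers that KO and WT embryos share, and the labels do not say that those numbers pair embryos. The 95% interval of Tgfb1, -0.64 to 0.46, leaves its direction unsettled.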

Other observations

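Among the activation partners under 1 FPKM on average, which were not tested, Itgb6, a subunit of the epithelial integrin that activates latent TGF-beta1 and TGF-beta3, measured 0.284, 0.243 and 0.268 FPKM (KO) and 3.86, 0.361, 0.479 and 0.312 FPKM (WT). The high value is of the WT embryo KOAC8-1. The other 3 WT embryos are also above the KO embryos, but by little (0.312 in KOAC10-2 against 0.284 in KOAC8-6). The lowest estimated count of Itgb6 was 48. Of all genes tested, 5.98% had all KO embryos under all WT embryos. Ltbp2, also not tested, overlapped, at 0.128 to 0.239 FPKM (KO) and 0.196 to 0.264 FPKM (WT). Furin, the protease that cuts the propeptide from the ligands, measured 11.9 to 13.2 FPKM (KO) and 14.1, 13.6, 23.8 and 14.2 FPKM (WT), with a log2 fold change of -0.31 (SE 0.19, adjusted p = 0.555 by limma), and the high value is of KOAC9-1. Itgb6 and Furin were chosen after their values were seen.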
